A study of Rattus norvegicus with 9 samples.

Results

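The genes described here are 10 rat genes used as markers of the cells that build small blood vessels. They and the gene lists used below were taken by name, but with earlier results of these data known. Of the 10 genes, 6 were listed as endothelial markers (Pecam1, Cdh5, Kdr, Tek, Vwf and Cldn5) and 4 as pericyte markers (Mcam, Pdgfrb, Rgs5 and Cspg4). This split was made here and is not exclusive. Every non-control probe whose accession mapped to one of these genes was taken. A probe was found for 9 of the 10 genes, 1 for each, and these 9 were among the 11047 genes tested. Vwf, the gene of von Willebrand factor, was not analysed here.

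RNA from the bladders of female rats was hybridised to 9 Agilent arrays in 1 colour (Cy3), 3 arrays for each of 3 groups, all at 3 weeks. The groups were partial bladder outlet obstruction with tolterodine (pBOO + tolterodine), partial bladder outlet obstruction alone (pBOO), and sham operation (sham), in which the urethra was not tied. Obstruction was made by ligating the proximal urethra over a catheter of 1 mm outer diameter. Tolterodine is a drug that blocks muscarinic acetylcholine receptors, and its dose and schedule are not given in the sources used here. Strain and age are likewise not given. The labels speak of 5 specimens examined per group. Whether an array holds RNA of 1 rat or of several is not stated, and p-values therefore measure only how far these arrays spread. The series concerns β-adrenoceptor signalling and matrix in bladder muscle cells.

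The protocol text uses the letters S and C for obstruction and sham operation, while the file codes carry them the other way round. Groups follow the array titles here, so the direction of each comparison that involves pBOO or sham rests on them. The share of spots well above background was 72.1% to 80.1% per array, at a 75th percentile of 523 to 1441 intensity units. Array sham 1 stood apart from its group: 879 and 598 of 10104 genes differed more than 2-fold between it and the other sham arrays, against 122 between those. Leaving it out changed no call among the 9 markers in any comparison. Slides were inferred, not labelled: arrays with the same scan time in the file headers were taken as sharing a slide. By this, slide 1 held tolterodine 1 and 2 with sham 2 and 3. Slide 2 held the pBOO arrays with sham 1, and slide 3 held tolterodine 3. No slide held both pBOO and tolterodine arrays. With slide as a fixed block, pBOO is therefore compared with sham through sham 1 alone. In that fit tolterodine against pBOO also passes through sham 1. All fixed-block values of these comparisons below rest on that array. A probe was found for 9 urothelial and 12 smooth muscle markers, and each of these was well above background on at least 1 array. The same held for every platelet, red cell and leukocyte marker with a probe, so this does not identify the tissue.

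Endothelial cells form the inner lining of every vessel. They hold to each other through adhesion molecules such as PECAM1 and VE-cadherin (Cdh5) and, where the barrier is tight, through claudin 5. They read growth factor signals through the VEGF receptor VEGFR2 (Kdr) and the angiopoietin receptor TIE2 (Tek). Pericytes are mural cells wrapped around capillaries. Endothelial cells recruit them with platelet-derived growth factor B, which binds the receptor encoded by Pdgfrb. Cspg4 encodes the surface proteoglycan NG2, Mcam the adhesion molecule CD146, and Rgs5 a regulator that shortens G protein signalling. Several of these genes are also read in other cells: Pecam1 in platelets and leukocytes, Mcam and Cspg4 in smooth muscle, Pdgfrb in fibroblasts. The arrays measured whole tissue, in which fewer cells of a type and less RNA per cell cannot be told apart.

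Promoter sequences are shown for the 4 markers matched in RefSeq's promoter table, build GRCr8, the only ones of the 10 found there. Cldn5 and Cspg4 rose in pBOO, while Kdr and Rgs5 did not pass the test. Each sequence is the 250 bases before the annotated gene start, read in the direction of the gene, with motif matches on either strand in capitals.
Cldn5 (chr11:95718599-95718848, minus strand): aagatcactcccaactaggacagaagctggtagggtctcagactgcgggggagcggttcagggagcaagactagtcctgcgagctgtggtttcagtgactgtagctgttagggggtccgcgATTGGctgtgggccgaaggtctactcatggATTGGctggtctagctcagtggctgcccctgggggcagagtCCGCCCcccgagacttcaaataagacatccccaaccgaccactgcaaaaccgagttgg
Kdr (chr14:32571813-32572062, plus strand): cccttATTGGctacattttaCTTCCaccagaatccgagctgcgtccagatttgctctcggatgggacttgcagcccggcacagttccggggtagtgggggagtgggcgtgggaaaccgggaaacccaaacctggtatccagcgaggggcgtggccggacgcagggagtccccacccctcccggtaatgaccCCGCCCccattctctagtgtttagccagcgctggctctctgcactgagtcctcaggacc
Cspg4 (chr8:66160692-66160941, plus strand): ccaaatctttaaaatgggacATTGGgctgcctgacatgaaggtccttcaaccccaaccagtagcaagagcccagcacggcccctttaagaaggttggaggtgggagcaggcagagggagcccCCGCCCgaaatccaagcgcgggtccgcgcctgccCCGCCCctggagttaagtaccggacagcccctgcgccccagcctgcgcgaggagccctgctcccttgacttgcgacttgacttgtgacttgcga
Rgs5 (chr13:84380827-84381076, plus strand): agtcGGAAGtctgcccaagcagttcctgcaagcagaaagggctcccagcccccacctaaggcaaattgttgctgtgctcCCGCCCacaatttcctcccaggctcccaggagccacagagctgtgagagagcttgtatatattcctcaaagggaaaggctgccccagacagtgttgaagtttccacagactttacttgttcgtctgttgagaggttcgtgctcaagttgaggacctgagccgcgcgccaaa
The motifs searched on both strands were the GC box GGGCGG, the CCAAT box CCAAT, the ETS core GGAAG, the TATA box TATAAA and the CArG box by name, and no matches overlapped. A GC box was present in all 4 windows, with 2 matches in Cspg4, and in 30.5% of 33465 promoters of this length. The CCAAT box was found in Cldn5, Kdr and Cspg4 and in 34% of all promoters, with 2 matches in Cldn5. The ETS core was found in Kdr and Rgs5 and in 63.3% of all promoters. The TATA box (12.9% of all promoters) and the CArG box (1.5%) had 0 matches in the 4 windows. A match is a run of letters and not a shown binding site.

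All levels are log2 values in which 0 is the 75th percentile of an array, and levels of different genes are not compared because each probe has its own brightness. Values are given for arrays 1, 2 and 3 of a group.

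**Figure D1:**
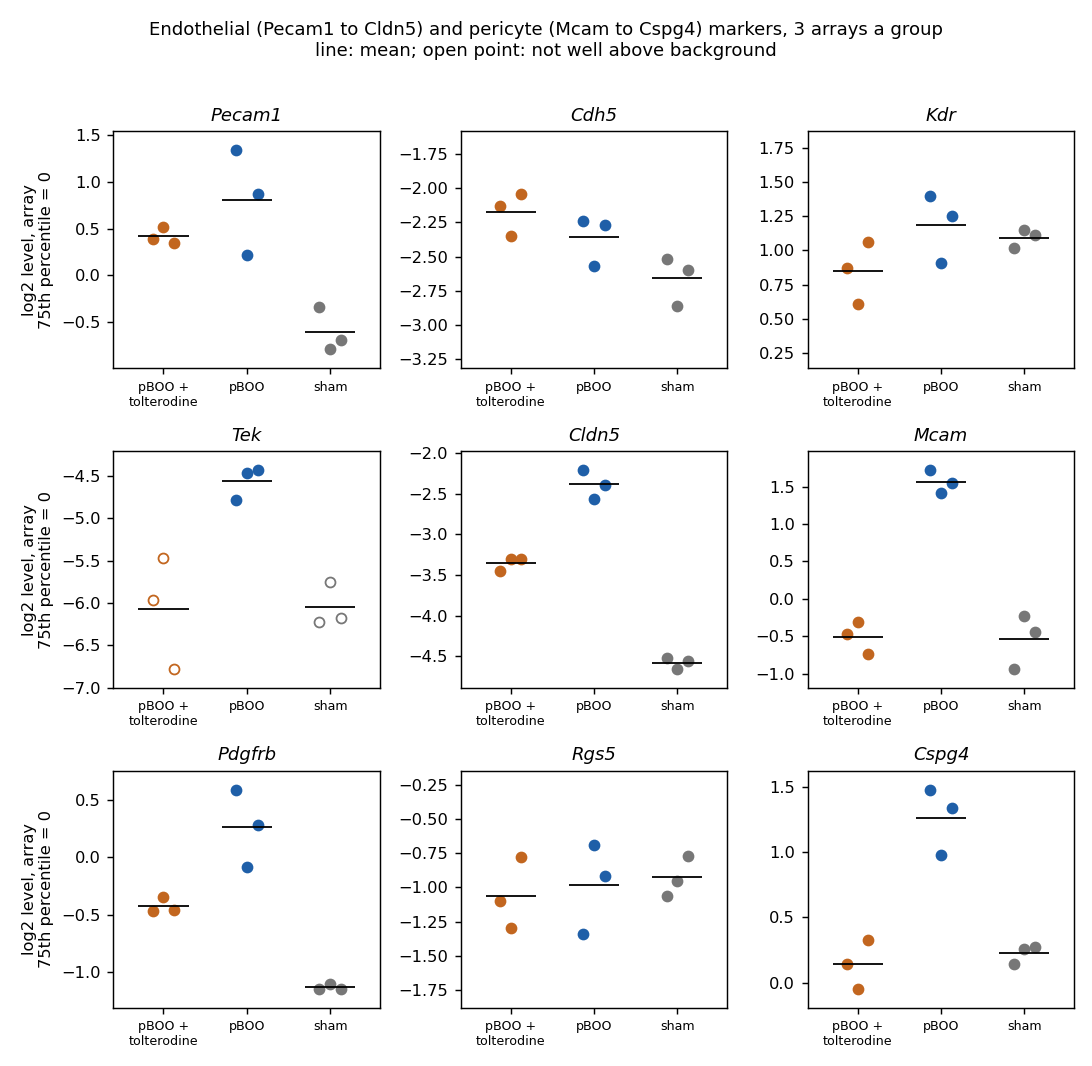
Level of each marker on each array, on the log2 scale with the array's 75th percentile at 0; points are arrays, lines are group means of 3 arrays, and open points were not well above background. Cldn5, Mcam and Tek had all pBOO points above every sham point, whereas the points of Kdr and Rgs5 overlap between all groups.

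Among the junction genes of endothelium, Pecam1 read 0.39, 0.52 and 0.35 with tolterodine, 1.34, 0.22 and 0.87 in pBOO, and -0.34, -0.79 and -0.69 in sham. Both obstructed groups lay above sham, and the pBOO arrays were spread more widely than the others. Cldn5 read -3.45, -3.30 and -3.31 with tolterodine, -2.21, -2.56 and -2.39 in pBOO, and -4.52, -4.66 and -4.56 in sham. These 3 groups did not overlap, with tolterodine between pBOO and sham. Cdh5 read -2.13, -2.35 and -2.04 with tolterodine, -2.24, -2.57 and -2.27 in pBOO, and -2.52, -2.86 and -2.60 in sham. The pBOO values of Cdh5 overlapped those of the other groups, while the tolterodine values lay above the sham values.

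Of the endothelial receptors, Kdr read 0.87, 0.61 and 1.06 with tolterodine, 1.40, 0.91 and 1.25 in pBOO, and 1.02, 1.15 and 1.11 in sham. All of its groups overlapped. Tek read -5.96, -5.47 and -6.78 with tolterodine, -4.78, -4.47 and -4.43 in pBOO, and -6.22, -5.75 and -6.18 in sham. It was well above background on 3 of 3 pBOO arrays and on 0 of 3 tolterodine and 0 of 3 sham arrays, so the low groups have only an upper limit. Tek therefore entered the test, which asked for 3 of 9 arrays, only through the group where it is high, and its difference is a description. The other 8 measured markers were well above background on all 9 arrays.

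Among the pericyte markers, Mcam read -0.47, -0.31 and -0.74 with tolterodine, 1.72, 1.42 and 1.55 in pBOO, and -0.94, -0.23 and -0.45 in sham. The pBOO arrays stood above all others, and the tolterodine values lay within the range of sham. Cspg4, measured on 10 spots per array, read 0.14, -0.05 and 0.33 with tolterodine, 1.48, 0.98 and 1.34 in pBOO, and 0.14, 0.26 and 0.27 in sham. It too was higher on each pBOO array than on any other array. Pdgfrb read -0.47, -0.35 and -0.46 with tolterodine, 0.59, -0.08 and 0.28 in pBOO, and -1.15, -1.11 and -1.15 in sham. Its groups did not overlap, with tolterodine in the middle. Rgs5 read -1.10, -1.30 and -0.78 with tolterodine, -1.34, -0.69 and -0.92 in pBOO, and -1.06, -0.95 and -0.77 in sham, and all groups overlapped.

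Within the pBOO group most of the markers shared an order. Array pBOO 1 had the highest and pBOO 2 the lowest level of 7 of the 9 markers, and these were the same 7 (all but Tek and Rgs5). The share of all genes with that order was not counted, so it is not shown to be particular to the markers. Arrays pBOO 1 and 2 were also the least alike pair of their group. Between them 406 of 10104 genes differed more than 2-fold, against 156 and 109 in the other pairs. The 75th percentile of the signal was 1441 on pBOO 1, 1032 on pBOO 2 and 951 on pBOO 3, and its part in this order was not tested. The median SD between arrays was 0.25 for the 9 markers and 0.16 for all genes in pBOO. It was 0.19 and 0.17 with tolterodine, and 0.15 and 0.20 in sham.

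**Figure D2:**
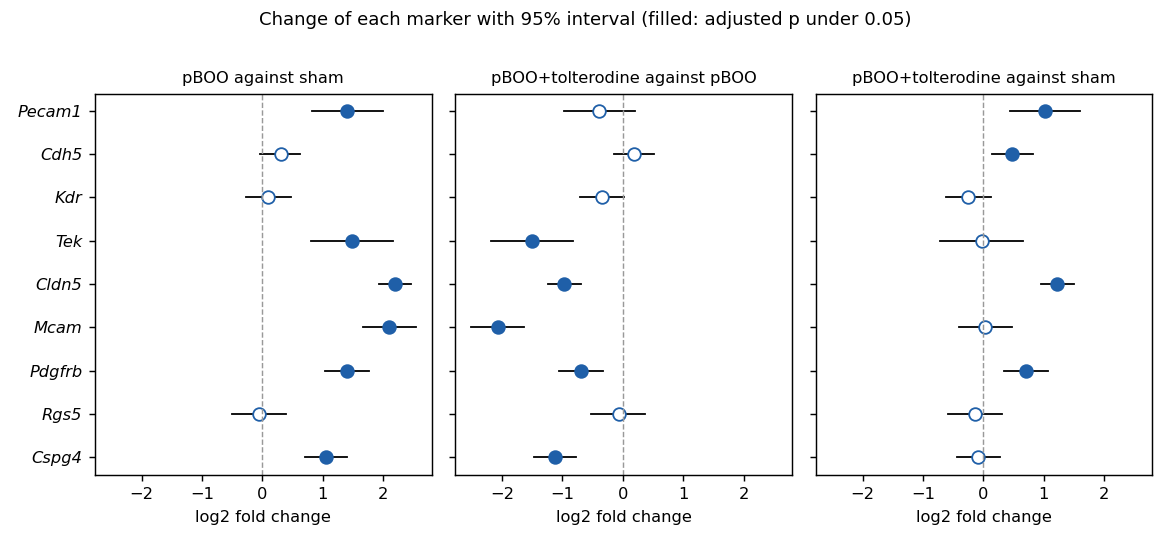
Log2 fold change of each marker with its 95% interval in the 3 comparisons, filled where the adjusted p was under 0.05. For pBOO against sham, 6 filled points lie right of 0; with tolterodine against pBOO, 5 lie left of 0; with tolterodine against sham, 4 lie right of 0.

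The first comparison asks how the vascular markers of the obstructed bladder differed from those of the sham-operated bladder. Claudin 5, CD146, TIE2, PECAM1, the PDGF receptor β and NG2 transcripts were higher in pBOO, while those of VE-cadherin, VEGFR2 and Rgs5 did not pass the test. Of the 9 markers, 6 rose and 0 fell, and the same 6 had all pBOO arrays above all sham arrays. Of the 8 markers without Tek, which was admitted by its pBOO arrays, 5 rose and 0 fell, with medians of 1.22 over the 8 and 0.86 over the 4 endothelial genes. Across all genes 20.8% rose and 21.7% fell, 42.5% together. All pBOO arrays lay above all sham arrays for 26.0% of genes and below them for 29.8%, 55.7% together. The median log2 fold change was 1.40 over the 9 markers, 1.41 over the endothelial and 1.22 over the pericyte genes, against -0.04 over all genes.

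Cldn5 rose by 2.20 (SE 0.12; adjusted p = 9.54e-06), which is 4.59-fold, with means of -2.38 ± 0.18 in pBOO and -4.58 ± 0.07 in sham (SD, n = 3 each). Mcam rose by 2.10 (SE 0.20; adjusted p = 9.93e-05), with means of 1.57 ± 0.15 in pBOO and -0.54 ± 0.37 in sham. Pecam1 rose by 1.41 (SE 0.26; adjusted p = 0.00262), Pdgfrb by 1.40 (SE 0.16; adjusted p = 0.000263) and Cspg4 by 1.05 (SE 0.16; adjusted p = 0.000946). Tek, admitted by its pBOO arrays alone, was at least 2.10-fold higher, with means of -4.56 ± 0.19 in pBOO and -6.05 ± 0.26 in sham. This is a description and not a test. For this bound each sham array contributed whichever was higher, Tek's own level or the dimmest probe well above background on that array. Cdh5 differed by 0.30 (95% interval -0.04 to 0.63; adjusted p = 0.134), Kdr by 0.10 (-0.27 to 0.47; adjusted p = 0.656) and Rgs5 by -0.06 (-0.50 to 0.39; adjusted p = 0.827). Without array sham 1 the rises were 2.23 for Cldn5, 1.90 for Mcam, 1.55 for Pecam1, 1.40 for Tek, 1.40 for Pdgfrb and 1.01 for Cspg4. Within slide 2, where sham 1 was the only sham array, they were 2.14, 2.51, 1.15, 1.65, 1.41 and 1.13 for the same genes. The values for Tek are point estimates from sham arrays that were not well above background.

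Pecam1 no longer passed with slide as a fixed block (1.15, adjusted p = 0.0511). That value and the one within slide 2, also 1.15, both rest on sham 1 and are not separate checks. With normexp background correction Tek lost its call, at 0.07 (adjusted p = 0.831), and Cldn5 kept it at 0.98 (adjusted p = 0.000889).

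The second comparison asks how the markers in obstructed bladders differed with tolterodine. CD146, TIE2, NG2, claudin 5 and the PDGF receptor β were lower with tolterodine than in pBOO alone, and no marker was higher. Of the 9 markers, 5 fell and 0 rose, and these 5 had all tolterodine arrays below all pBOO arrays. Without Tek, 4 of 8 fell, with medians of -0.54 over the 8 and -0.36 over the 4 endothelial genes. Across all genes 26.0% rose and 15.3% fell, 41.3% together. All tolterodine arrays lay above all pBOO arrays for 36.7% of genes and below them for 22.0%, 58.7% together. The median log2 fold change was -0.69 over the 9 markers, -0.39 over the endothelial and -0.91 over the pericyte genes, against 0.11 over all genes. This comparison shares its pBOO arrays with the first, and the third comparison shares arrays with both, so their values are not independent.

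Mcam fell by 2.07 (SE 0.20; adjusted p = 8.52e-05), which is 4.21-fold, with means of -0.51 ± 0.22 with tolterodine and 1.57 ± 0.15 in pBOO (SD, n = 3 each). Cspg4 fell by 1.13 (SE 0.16; adjusted p = 0.000636), with means of 0.14 ± 0.19 with tolterodine and 1.27 ± 0.26 in pBOO. Cldn5 fell by 0.97 (SE 0.12; adjusted p = 0.000363) and Pdgfrb by 0.69 (SE 0.16; adjusted p = 0.00865). Tek, admitted by its pBOO arrays alone, was at least 2.30-fold lower, again as a description. Pecam1 differed by -0.39 (95% interval -0.97 to 0.20; adjusted p = 0.257), Kdr by -0.34 (-0.71 to 0.02; adjusted p = 0.119), Cdh5 by 0.19 (-0.15 to 0.52; adjusted p = 0.338) and Rgs5 by -0.07 (-0.52 to 0.37; adjusted p = 0.786). No slide gives a value within it for this comparison. With slide as a fixed block, which joins the groups through the sham arrays, the changes were -2.56 for Mcam, -1.40 for Tek, -1.34 for Cspg4 and -0.90 for Cldn5. For Tek this is a point estimate, since its tolterodine and sham arrays were not well above background.

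Without array pBOO 2 the count of markers that fell was 7, with Pecam1 at -0.68 (adjusted p = 0.027) and Kdr at -0.48 (adjusted p = 0.0433); with quantile scaling Kdr passed at -0.44 (adjusted p = 0.0455). Tek lost its call with normexp correction, at -0.20 (adjusted p = 0.541), and Pdgfrb with slide as a fixed block, at -0.69 (adjusted p = 0.131).

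The third comparison sets obstruction with tolterodine against sham operation. The junction genes Cldn5, Pecam1 and Cdh5 and the receptor gene Pdgfrb were higher with tolterodine, and Mcam, Cspg4, Tek, Kdr and Rgs5 did not pass. Of the 9 markers, 4 rose and 0 fell, and the 4 had all tolterodine arrays above all sham arrays. Across all genes 17.8% rose and 6.58% fell, 24.4% together. All tolterodine arrays lay above all sham arrays for 27.8% of genes and below them for 15.3%, 43.1% together. The median log2 fold change was 0.03 over the 9 markers, 0.48 over the endothelial and -0.03 over the pericyte genes, against 0.09 over all genes. Without Tek it was 0.26 over 8 markers and 0.76 over the 4 endothelial genes.

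Cldn5 rose by 1.23 (SE 0.12; adjusted p = 0.000449), with means of -3.35 ± 0.08 with tolterodine and -4.58 ± 0.07 in sham (SD, n = 3 each). Pecam1 rose by 1.03 (SE 0.26; adjusted p = 0.0213), Pdgfrb by 0.71 (SE 0.16; adjusted p = 0.0143) and Cdh5 by 0.48 (SE 0.15; adjusted p = 0.0432). Mcam differed by 0.03 (95% interval -0.41 to 0.48; adjusted p = 0.922) and Cspg4 by -0.08 (-0.44 to 0.27; adjusted p = 0.729). Kdr differed by -0.25 (-0.61 to 0.12; adjusted p = 0.295) and Rgs5 by -0.13 (-0.58 to 0.31; adjusted p = 0.655). Tek was well above background in neither group and is given no fold. Without array sham 1 the rises were 1.26 for Cldn5, 1.16 for Pecam1, 0.71 for Pdgfrb and 0.55 for Cdh5. Within slide 1, with 2 arrays of each group, they were 1.24, 1.20, 0.72 and 0.49 for the same genes, and Kdr passed there as lower, at -0.39 (adjusted p = 0.0435).

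The number of calls depended on single arrays: it was 2 without tolterodine 1, 1 without tolterodine 2, 2 without sham 2 and 1 without sham 3. Cdh5 lost its call under quantile scaling (0.35; adjusted p = 0.153) and most other settings, and Cldn5 lost its call with normexp correction (0.41; adjusted p = 0.116).

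Markers of the same cell type did not change by the same amount, which can be read within each array as the difference between 2 probes. These pairs were chosen after the values were seen and were given no test, and 3 arrays against 3 cannot reach an exact p below 0.1. Pecam1 minus Cdh5 was 2.53, 2.87 and 2.39 with tolterodine, 3.58, 2.79 and 3.14 in pBOO, and 2.18, 2.07 and 1.91 in sham. It was higher by 1.12 in pBOO than in sham without overlap, and the tolterodine arrays overlapped those of pBOO. Cldn5 minus Cdh5 was higher by 1.90 in pBOO than in sham, and its 3 groups did not overlap. Mcam minus Rgs5 was 0.63, 0.99 and 0.03 with tolterodine, 3.06, 2.12 and 2.47 in pBOO, and 0.12, 0.72 and 0.32 in sham. It was higher by 2.16 in pBOO than in sham, and tolterodine and sham overlapped. Cspg4 minus Rgs5 was higher by 1.11 and Pdgfrb minus Rgs5 by 1.46 in pBOO than in sham, again without overlap.

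Over the 9 arrays, with each gene centred on its own mean, the most alike pair of markers was Pecam1 and Pdgfrb, with a root mean square difference of 0.218 (log2). The least alike pair was Mcam and Rgs5 at 1.044. Among all genes, those with the pattern closest to Cdh5 were Cdkn1a (0.084), Rnf166 (0.095), Ggps1 (0.095), Adgrl2 (0.099) and Spats2l (0.104), against a median of 0.410 over 10103 genes. Those closest to Rgs5 were Mcoln1 (0.085), Nrip1 (0.102), Prss27 (0.104), Hspbap1 (0.112) and B4galt7 (0.116), against a median of 0.390. These are descriptions, and small differences favour genes that move little.

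Other endothelial genes also split into genes that rose in pBOO and genes that did not pass. Of 25 tested genes of a list of 30, 15 rose and 0 fell in pBOO against sham, with a median of 0.75. For all genes these shares were 20.8% and 21.7%. The count that rose was 6 with normexp correction and 6 within slide 2. Tie1, a receptor that pairs with TIE2, rose by 1.40 (adjusted p = 0.00111), and Nos3, the endothelial nitric oxide synthase, rose by 1.35 (adjusted p = 0.000101). With normexp correction both lost their calls, Tie1 at 0.29 (adjusted p = 0.205) and Nos3 at 0.33 (adjusted p = 0.173). The other 10 genes did not pass, among them the VEGF receptor Flt1 at -0.35, the TGF-β coreceptor Eng at 0.08, the sialomucin Emcn at -0.16, the diaphragm protein gene Plvap at 0.40 and the transcription factor Erg at 0.07 (adjusted p between 0.183 and 0.795). With slide as a fixed block Flt1 passed at -0.33 (adjusted p = 0.0424).

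With tolterodine against pBOO, 3 of the 25 rose and 11 fell, against 26.0% and 15.3% of all genes, with a median of -0.30. Over the alternatives 1 to 5 rose and 3 to 12 fell. Nos3 fell by 0.66 (adjusted p = 0.00355), Tie1 by 0.76 (adjusted p = 0.0205) and Plvap by 0.71 (adjusted p = 0.0411), and with slide as a fixed block none of these passed (-0.38, -0.21 and -0.42). In the same comparison Erg rose by 0.64 (adjusted p = 0.027) and Emcn by 0.40 (adjusted p = 0.0154). Erg lost this call with array median scaling (0.58; adjusted p = 0.0566) and without tolterodine 1, tolterodine 3, pBOO 2 or pBOO 3, and Emcn with normexp correction (0.28; adjusted p = 0.118). Against sham, 10 of the 25 rose and 1 fell with tolterodine, beside 17.8% and 6.58% of all genes, with a median of 0.39. Over the alternatives 4 to 17 rose and 0 to 3 fell. There Nos3 rose by 0.68 (adjusted p = 0.00644), which did not pass with quantile scaling (0.35; adjusted p = 0.0978) or normexp correction (0.13; adjusted p = 0.731). Erg rose by 0.71 (adjusted p = 0.0293), and its call was lost with array median scaling (0.57), with normexp correction (0.61) and when any of 6 arrays was left out.

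**Figure D3:**
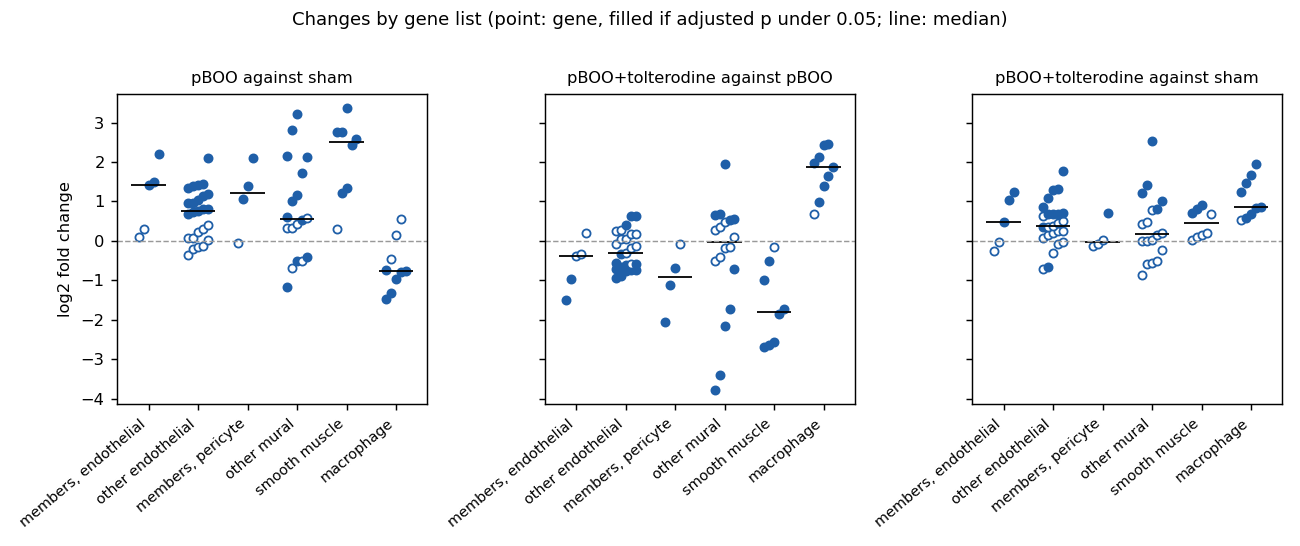
Log2 fold change of every tested gene of 6 groups (the markers, split by cell type, and 4 lists), filled where the adjusted p was under 0.05, with a line at the median. In pBOO against sham the medians were 1.41 for endothelial markers, 0.75 for other endothelial genes, 1.22 for pericyte markers, 0.55 for other mural genes, 2.52 for smooth muscle and -0.77 for macrophage markers.

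The other mural genes were mixed. Of 18 tested of a list of 20, 9 rose and 3 fell in pBOO against sham, with a median of 0.55. For all genes these shares were 20.8% and 21.7%. The count that rose was 4 with normexp correction and 5 for genes well above background on all arrays. Abcc9 and Kcnj8, which encode the subunits of the ATP-sensitive potassium channel of mural cells, rose by 2.15 (adjusted p = 0.000116) and 1.00 (adjusted p = 0.00499). Notch3, a mural receptor, differed by 0.33 (adjusted p = 0.183), and Anpep, an aminopeptidase on pericytes, by 0.33 (adjusted p = 0.224). Notch3 passed without sham 1 (0.53; adjusted p = 0.022), and Anpep with slide as a fixed block (0.43; adjusted p = 0.0355) and without tolterodine 3. With tolterodine against pBOO, 5 of 18 rose and 5 fell (3 to 6 and 2 to 7 over the alternatives). Of all genes 26.0% rose and 15.3% fell there. Abcc9 fell by 2.16 (adjusted p = 9e-05) while Kcnj8 was at -0.52 (adjusted p = 0.0743). With slide as a fixed block Kcnj8 passed at -1.29 (adjusted p = 0.00572). Against sham, 5 of 18 rose and 0 fell with tolterodine (2 to 7 and 0 to 4 over the alternatives). Of all genes 17.8% rose and 6.58% fell in that comparison. There Notch3 rose by 0.82 (adjusted p = 0.0151), which did not pass with normexp correction or without sham 2 or sham 3, and Abcc9 stood at -0.01 (adjusted p = 0.976).

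**Figure D4:**
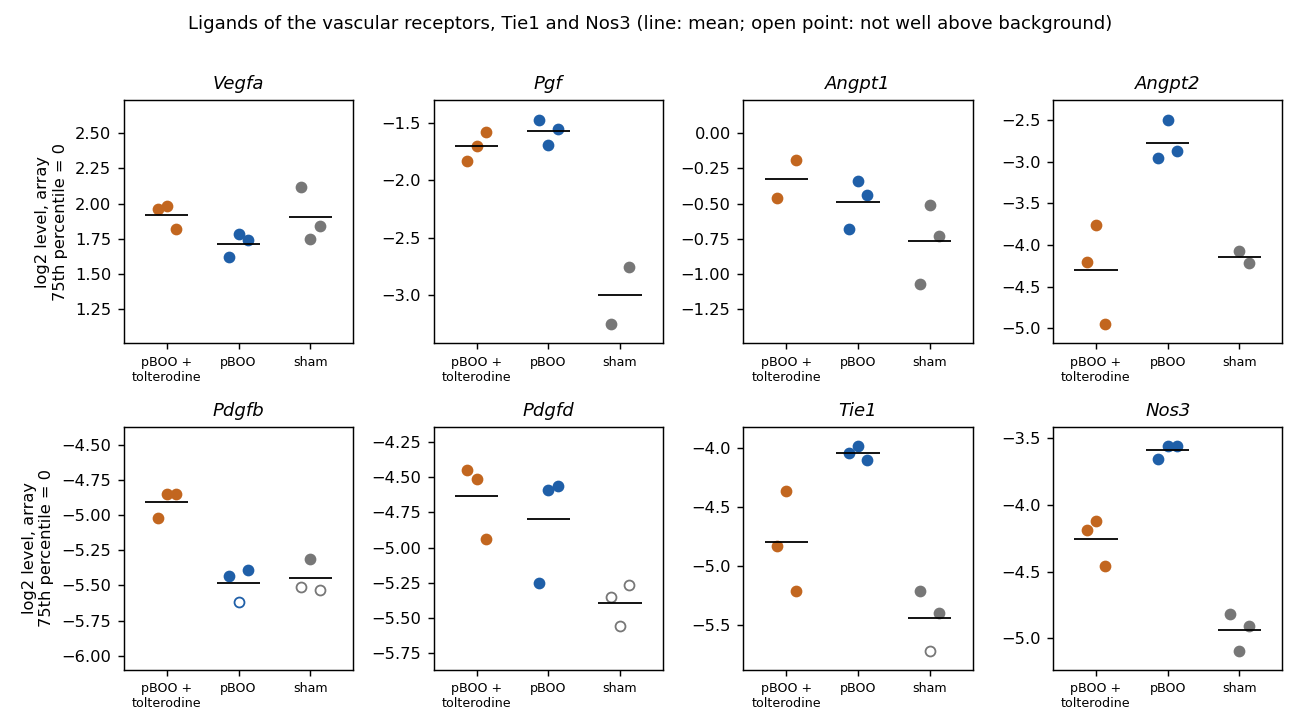
Log2 level on each array of 6 ligands of the vascular receptors and of Tie1 and Nos3, with group means as lines; open points were not well above background and flagged spots are not drawn. Angpt2 was high in the 3 pBOO arrays (-2.95, -2.49 and -2.87), Pgf was high in both obstructed groups, and the brightest Vegfa probe lay between 1.62 and 2.12 on all arrays.

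The ligands of the marker receptors did not move as a block. Of 21 tested genes of a list of 25 vascular ligands and receptors, 10 rose and 1 fell in pBOO against sham. For all genes these shares were 20.8% and 21.7%. With tolterodine against pBOO 5 rose and 5 fell, beside 26.0% and 15.3% of all genes. With tolterodine against sham 10 rose and 0 fell, beside 17.8% and 6.58% of all genes. Over the alternatives the counts that rose ran from 4 to 12, from 3 to 6 and from 2 to 11 in these comparisons, and 3 to 7 fell in the second. For the VEGF receptors, Vegfa read 1.96, 1.98 and 1.82 with tolterodine, 1.62, 1.78 and 1.74 in pBOO, and 2.12, 1.75 and 1.84 in sham, and it did not pass in any comparison. With slide as a fixed block it did, at -0.41 in pBOO against sham (adjusted p = 0.0249) and at 0.58 with tolterodine against pBOO (adjusted p = 0.0199). These values are of the brightest of its 4 probes. The others differed by -0.08, 0.11 and -0.08 in pBOO against sham. They differed by 0.64, 0.59 and 0.23 with tolterodine against pBOO, and by 0.55, 0.70 and 0.15 with tolterodine against sham. Pgf, the placental growth factor, read -1.83, -1.70 and -1.58 with tolterodine, -1.47, -1.69 and -1.55 in pBOO, and -3.25 and -2.75 in sham, where array 2 was flagged. It rose by 1.43 in pBOO against sham (adjusted p = 0.000577) and by 1.30 with tolterodine against sham (adjusted p = 0.00244), and was at -0.13 with tolterodine against pBOO (adjusted p = 0.532), where with slide as a fixed block it passed at -0.70 (adjusted p = 0.0381).

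For TIE2, Angpt2, a ligand that can oppose Angpt1, read -4.20, -3.76 and -4.95 with tolterodine, -2.95, -2.49 and -2.87 in pBOO, and -4.07 and -4.22 in sham, where array 1 was flagged. It rose by 1.38 in pBOO against sham (adjusted p = 0.0107) and fell by 1.54 with tolterodine against pBOO (adjusted p = 0.00422), so its high group was that of Tek. With normexp correction these were 0.64 and -0.71, and both passed. Angpt1, the activating ligand, differed by 0.29 in pBOO against sham (adjusted p = 0.224), by 0.16 with tolterodine against pBOO (adjusted p = 0.534) and by 0.45 with tolterodine against sham (adjusted p = 0.132), with tolterodine 2 flagged. With slide as a fixed block Angpt1 passed in pBOO against sham, at 0.58 (adjusted p = 0.0438).

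For the PDGF receptor β, Pdgfb was near background and differed by -0.03 in pBOO against sham (adjusted p = 0.86). It rose by 0.57 with tolterodine against pBOO (adjusted p = 0.00502) and by 0.54 with tolterodine against sham (adjusted p = 0.0122), and with normexp correction neither passed (0.25 and 0.00). Pdgfd was at least 1.69-fold higher with tolterodine than in sham, with 0 of 3 sham arrays well above background. It entered the test only through the obstructed groups, where it is high. Its call there (adjusted p = 0.0325) is therefore a description and not a test. In pBOO against sham it did not pass (adjusted p = 0.0505). Its call with tolterodine against sham was lost with quantile scaling (0.42, adjusted p = 0.149) and with normexp correction (0.14, adjusted p = 0.782). That call was also lost with no filter on dim probes, with the replicate block, and without tolterodine 1, tolterodine 2, sham 2 or sham 3. The Notch ligand Dll4 cannot be given a direction: its probes differed by -0.16 and 2.65 in pBOO against sham.

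Among the adhesion genes that vessels show to leukocytes, Icam1 fell by 0.92 in pBOO against sham (adjusted p = 0.0019) and rose by 0.94 with tolterodine against pBOO (adjusted p = 0.00175). Vcam1 fell by 0.96 with tolterodine against pBOO (adjusted p = 0.0132), and in pBOO against sham it was at 0.66 (adjusted p = 0.0575). In that comparison Vcam1 passed with slide as a fixed block (0.98; adjusted p = 0.0137), as a random block (0.93; adjusted p = 0.0079) and in 4 other settings. Selp was not well above background on any array. Of the lymphatic markers Lyve1, a hyaluronan receptor also carried by some macrophages, rose by 2.11 with tolterodine against pBOO (adjusted p = 7.65e-06) and by 1.78 against sham (adjusted p = 0.000135). Flt4, the receptor for VEGF-C, fell by 0.78 with tolterodine against pBOO (adjusted p = 0.0359), while another probe of the gene was at 0.21, and the call was lost in several settings. Prox1 was not well above background on any array.

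Markers of other cell types moved beside the vascular genes. In the 3 comparisons, in order, 20.8%, 26.0% and 17.8% of all genes rose and 21.7%, 15.3% and 6.58% fell. Of 8 smooth muscle markers tested of 14, 7 rose in pBOO against sham (median 2.52), 7 fell with tolterodine against pBOO (median -1.79) and 3 rose with tolterodine against sham. Their summed level over 6 genes, with an array's 75th percentile as 1 unit, ran from 60.2 to 95.7 with tolterodine, from 92.2 to 105 in pBOO and from 57.6 to 75.1 in sham. Such a sum weighs each gene by the brightness of its probe. Most of this one was Acta2, which read 6.04, 5.83 and 6.53 with tolterodine, so it does not show the genes that rose. The summed level of the 4 pericyte markers ran from 2.96 to 3.16, from 6.23 to 7.99 and from 2.56 to 3.03 in the same groups. Myh11, smooth muscle myosin, rose by 2.59 in pBOO against sham (adjusted p = 0.000933) and fell by 2.57 with tolterodine against pBOO (adjusted p = 0.00101). With slide as a fixed block these were 3.66 and -4.10, and with flagged spots kept 1.78 and -1.76. The block values rest on sham 1, where Myh11 read -0.16, against 1.53 and 1.33 on sham 2 and 3. Acta2, smooth muscle actin, passed in no comparison, though with quantile scaling it did in the first at 0.90 and in the second at -0.57. The part of smooth muscle in the levels of Mcam, Cspg4 and Abcc9 was not tested.

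For Pecam1, which platelets and leukocytes also carry, the summed level of 4 platelet markers ran from 2.18 to 2.45 with tolterodine, from 1.07 to 1.16 in pBOO and from 1.88 to 2.08 in sham. That of 5 leukocyte markers ran from 12.1 to 12.5, from 3.30 to 3.65 and from 5.31 to 7.50 in the same groups. Both sums were thus lowest in pBOO, where Pecam1 was highest in its mean. Most of the platelet sum was Pf4. Of the other platelet markers, Ppbp was lower in pBOO than in sham (-1.34, adjusted p = 0.000879). Gp9 (0.17), Gp1bb (-0.12) and Treml1 (-0.22) did not pass there or in the other comparisons. The platelet chemokine Pf4 fell by 0.85 in pBOO against sham (adjusted p = 0.000387) and rose by 1.09 with tolterodine against pBOO (adjusted p = 9.71e-05). Macrophage markers had 0 that rose and 6 that fell of 9 in pBOO against sham, beside 20.8% and 21.7% of all genes. With tolterodine 8 of 9 rose in both other comparisons, where 26.0% (against pBOO) and 17.8% (against sham) of all genes rose. Red cell markers, summed over 3 genes, ran from 0.559 to 0.804 with tolterodine, from 1.74 to 1.93 in pBOO and from 0.902 to 1.58 in sham, highest in pBOO. Of 6 fibroblast markers, 3 rose in pBOO and 4 with tolterodine against sham, beside Pdgfrb, which rose in both. Of 5 glial markers, 2 rose and 1 fell in pBOO against sham. Their part in the changes of the vascular markers was not tested.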

How the data were processed

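Each array has a deposited file of spot intensities. The files were written, per the file headers, by Feature Extraction 11.0.1.1 (the submitters' processing notes name 9.1), and the processed signal is an intensity after background subtraction, not normalized between arrays. The deposited median signal, local background and quality flags, of another kind with values 0 or 1, were also used.

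Log2 processed signals of 42877 non-control spots were set relative to each array's 75th percentile. Spots flagged as non-uniform or as population outliers were set to missing, and spots of a probe were averaged. Probes well above background on at least 3 of 9 arrays were kept. Accessions were matched to RefSeq symbols (GRCr8) for 18005 of 30367 probes. The brightest probe with at least 2 unflagged arrays in each group stood for a gene, which left 11047 genes. Gene coordinates of the array's own older build are not given.

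Contrasts came from a single limma fit with 1 coefficient per group (limma 3.58.1, R 4.3.3, 6 residual degrees of freedom), two-sided, with Benjamini-Hochberg adjustment over all genes and a threshold of 0.05. The fit was tested on simulated data. The number of arrays limits the precision. Array numbers do not pair the samples. Alternatives covered scaling, background correction, filters, probes, slides, the replicate block, exchanged names and each array left out. The markers and gene lists were chosen with earlier results of these data known, and other named genes were chosen for their role. Itga2b had no probe.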

Additional observations from a re-analysis of the deposited data

How the results depend on the processing

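Of the 9 vascular markers, 5 or 6 were called in pBOO against sham under every alternative that kept the array names, and all rose. With single arrays left out the count stayed at 6. Counts here and under exchanged names include Tek, which was admitted by its pBOO arrays alone and whose call is a description. Asking for all 9 arrays well above background left 8 markers, without Tek, of which 5 were called in pBOO against sham. With tolterodine against pBOO, 4 to 7 were called and all fell, and the count was 5 to 7 with single arrays left out. With tolterodine against sham the count was 2 with normexp background correction, which adds 50 to every intensity, 5 within slide 1 (4 higher and 1 lower), and 1 to 4 with single arrays left out. Exchanging the names of sham and pBOO turned pBOO against sham round, with 6 calls, all lower: Pecam1 -1.41, Tek -1.49, Cldn5 -2.20, Mcam -2.10, Pdgfrb -1.40 and Cspg4 -1.05. With tolterodine against pBOO it gave 4 calls, all higher, namely Pecam1 at 1.03, Cdh5 at 0.48, Cldn5 at 1.23 and Pdgfrb at 0.71, while Mcam at 0.03 did not pass, and with tolterodine against sham 5, all lower, namely Tek at -1.51, Cldn5 at -0.97, Mcam at -2.07, Pdgfrb at -0.69 and Cspg4 at -1.13, while Pecam1 at -0.39 did not pass. Other named genes and lists were not refitted under the exchange, which would only turn signs and swap comparisons. With the mean of its probes, Dll4 was at 1.25 in pBOO against sham and at -0.47 with tolterodine against pBOO. Myh11 with tolterodine against sham was at -0.44 within slide 1 and between -0.51 and 0.34 with single arrays left out, lowest without sham 1. Replicate numbers did not pair the arrays (9 same-number pairs, r from -0.08 to 0.18, 1 over 0.1), and with the replicate block 6, 5 and 4 markers were called, as without it. Over all genes the 3 comparisons called 4695, 4563 and 2695 genes, against 3026, 3000 and 961 with normexp, and 2907 within slide 2 for pBOO against sham. With tolterodine against sham there were 4484 with slide as a fixed block, 4276 as a random block, 5722 within slide 1, and as few as 1381 with an array left out. That comparison had 1968 genes higher and 727 lower, but 1411 and 1015 with quantile and 1455 and 1459 with array median scaling, where its median over all genes was -0.05 and not 0.09. Tolterodine against pBOO had 2872 higher and 1691 lower, but 2493 and 2242 with quantile scaling, with a median of 0.01 and not 0.11. In pBOO against sham normexp moved the median over all genes to -0.14. Array weights could not be fitted. Except where named, the cause of a lost call was not tested. Tek on sham and tolterodine arrays lay near background, which limits its fold to a bound.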
